A study of Mus musculus with 12 samples.

Results

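The AMPA receptor group in this study of the adult mouse cortex comprised 9 genes out of 21769 rows of the deposited table. They were taken by symbol: the pore subunit genes Gria1, Gria2, Gria3 and Gria4, the TARP genes Cacng2, Cacng3 and Cacng8, and the cornichon genes Cnih2 and Cnih3. Each symbol stood on a single row, and all 9 genes passed the filter on low counts, as did 11693 genes in all. Whole cortex was collected from KO mice, HxD mice and WT mice, named by their genotype at Tet1, with 4 libraries each. By its title the study asks which roles of TET1 need its enzymatic activity and which do not. TET1 is a dioxygenase that oxidises methylated cytosine in DNA, and a short motif called HxD holds the iron of such enzymes, though the labels used here do not spell the genotype out. The labels used here call the cortex adult and give no treatment, exact age, strain, sex or number of animals, nor whether each library stands for its own animal. The p-values therefore measure the spread between these libraries, which may be technical.

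AMPA receptors carry most of the fast excitatory current between cortical neurons. Each receptor is an assembly of GluA subunits, encoded by the Gria genes, around which auxiliary proteins sit. TARPs (transmembrane AMPA receptor regulatory proteins) bring receptors to the synapse and slow their closing, and cornichons aid export from the endoplasmic reticulum and also slow the closing. The identity of the subunits decides whether the pore passes calcium. In mammals, receptors with GluA2 are nearly impermeable to calcium because the Gria2 transcript is edited by the deaminase ADARB1 at a glutamine codon of the pore loop, where an arginine codon is read instead.

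That codon and its surroundings are shown because editing there makes the role of GluA2, and because 1 count per gene cannot see editing. The segments are coding exon sequence from GENCODE M21 on GRCm38, 45 bases each, written 5′ to 3′ on the gene's own strand. Capitals mark the codon as it stands in the genome.
Gria1: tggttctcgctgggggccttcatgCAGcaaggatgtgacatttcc
Gria2: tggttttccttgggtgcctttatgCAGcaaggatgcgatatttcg
Gria3: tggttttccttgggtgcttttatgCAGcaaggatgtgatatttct
Gria4: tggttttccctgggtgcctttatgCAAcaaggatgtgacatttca
They lie at chr11:57243070-57243114 (plus strand, exon 11 of Gria1), chr3:80706893-80706937 (minus strand, exon 11 of Gria2), chrX:41610241-41610285 (plus strand, exon 11 of Gria3) and chr9:4464119-4464163 (minus strand, exon 12 of Gria4). Of the 45 bases, 35 are identical in all 4 genes, and Gria2 and Gria3 share the most, 42. All 4 genes encode glutamine there, as CAG in Gria1, Gria2 and Gria3 and as CAA in Gria4, and the arginine codon of edited Gria2 is in none of the genomic segments.

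The library totals of estimated counts were 5791642 to 9535409 in KO, 7767787 to 10347432 in HxD and 8310783 to 10915574 in WT. Tet1 itself was listed at 0 in all 4 KO and all 4 WT libraries and at 1, 0, 63 and 67 in HxD 1 to 4, so the genotype labels cannot be checked from it. Slc17a7, the vesicular glutamate transporter of cortical excitatory neurons, stood at 1822 to 3221 CPM (the count scaled to the library total, with TMM factors) in the 12 libraries, and 3 of the 10 excitatory markers were at 0 in some library. In every library the table lists at 0 genes that every cell uses, such as Gapdh, and that other cell types of the brain need, such as Csf1r and Pecam1. A low value in it is therefore read only as a low listed value. Libraries also differed in tissue markers: summed hippocampal markers reached 238 CPM in HxD 1, against 14.7 to 34.6 CPM in the other 11 libraries. Fibcd1 alone gave 200.3 CPM of the HxD 1 sum. Of the 8 hippocampal markers 6 were at 0 in some library, Zbtb20 among them in every library. Summed striatal markers reached 1123 CPM in HxD 3 and lay between 257 and 696 CPM in the other HxD libraries, 292 and 436 CPM in KO, and 400.5 and 670.3 CPM in WT. Of the 8 striatal markers 2 were at 0 in some library.

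No AMPA receptor gene passed edgeR's quasi-likelihood test at an adjusted p below 0.05 in HxD against WT, in KO against WT or in KO against HxD. Among all tested genes 0.898%, 0.154% and 1.02% passed in these comparisons, so with 9 members a count of 0 lies near the background. DESeq2 and limma-voom also called 0 members in each. With p-values left unadjusted, 0, 1 and 3 members were below 0.05, where 4.05%, 9.48% and 11.6% of all tested genes stood. The median log2 fold change over the 9 genes was 0.06 in HxD against WT, -0.21 in KO against WT and -0.21 in KO against HxD, and over all tested genes it was 0.01, 0.01 and 0.00.

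**Figure D1:**
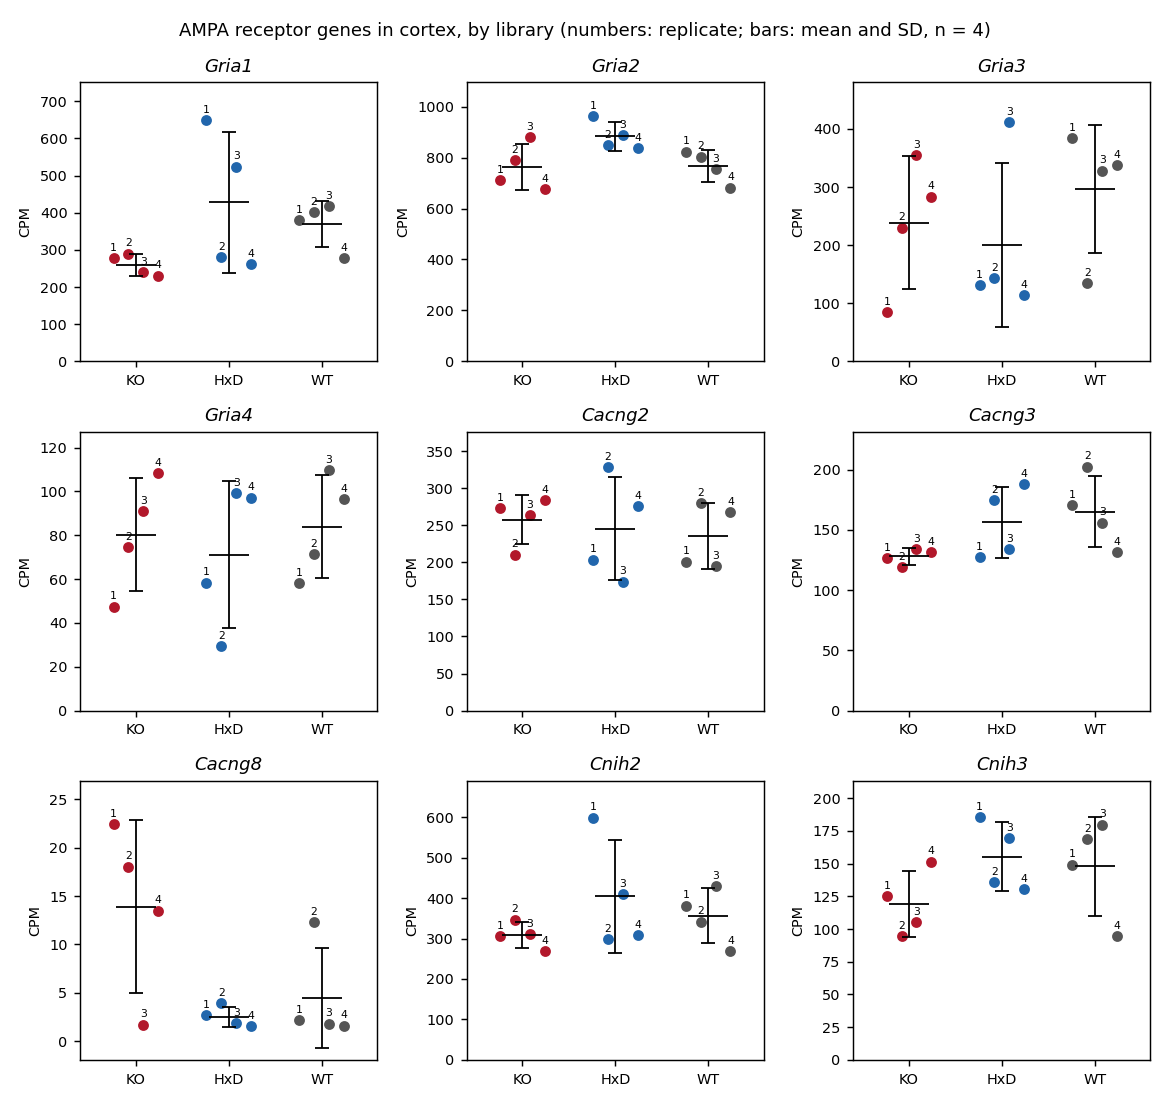
Level of each of the 9 genes (CPM, linear axis from 0, or just below it for Cacng8) in every KO, HxD and WT library, numbered by replicate, with the mean and SD of 4 libraries as bars. Gria2 is the steadiest gene, while Gria3 and Cacng8 fall into high and low libraries within a genotype.

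Among the pore subunits, Gria2 varied least. It had 711, 789, 879 and 676 CPM in KO 1 to 4, 964, 849.7, 888 and 836 CPM in HxD 1 to 4, and 823, 804, 754 and 683 CPM in WT 1 to 4. All 4 HxD libraries lay above all 4 WT libraries, the KO values spread over the WT range, and KO 3 reached into the HxD range. The groups of no other member were apart in HxD against WT, and those of no member at all in KO against WT or KO against HxD. Among all tested genes 3.48% were apart between HxD and WT in either direction, and 1.76% were higher throughout in HxD. Between KO and WT 7.2% of tested genes were apart, 3.25% with KO higher, and between KO and HxD 7.59%. The means were 884 ± 57.3 CPM in HxD and 766 ± 62.9 CPM in WT (SD, n = 4), a log2 fold change of 0.21 ± 0.09 (SE). The edgeR test gave an unadjusted p of 0.0513 and an adjusted p of 0.999, with a 95% interval of the fold from 0.999 to 1.33. Against WT, KO at 764 ± 90.4 CPM differed by a log2 fold change of -0.0038 ± 0.09, and the interval allows a fold between 0.863 and 1.15. With the trend on transcript length removed from each library, these differences became 0.37 in HxD and 0.29 in KO, both without passing the test (adjusted p = 0.9998 and 0.567). Gria2 has the longest transcript of the group, 10.4 kb. In KO against HxD, the difference was -0.21 ± 0.09 (edgeR unadjusted p = 0.0479, adjusted p = 0.428). It became -0.08 with the length trend removed (adjusted p = 0.901).

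Gria1 encodes GluA1, the subunit best known for being delivered to synapses during long-term potentiation. It had 279, 290.1, 239.7 and 231 CPM in KO 1 to 4, 649.8, 280.2, 524 and 261 CPM in HxD 1 to 4, and 379, 402, 419 and 278 CPM in WT 1 to 4. KO was the narrow and low group, HxD split into a high pair (1 and 3) and a low pair (2 and 4), and WT lay between with WT 4 at the KO level. The KO mean of 259.8 ± 29.0 CPM stood against 429 ± 190.0 CPM in HxD and 369.6 ± 62.9 CPM in WT. In KO against WT the log2 fold change was -0.51 ± 0.27 (95% interval of the fold 0.461 to 1.07, edgeR adjusted p = 0.620). In KO against HxD it was -0.72 ± 0.28 (unadjusted p = 0.0244, adjusted p = 0.353). That difference came to -0.46 without HxD 1, and to -0.06 with HxD 2 and HxD 4 as the only HxD libraries, a choice made after seeing the data. HxD against WT gave 0.21 ± 0.27, which turned to -0.06 without HxD 1. Of the libraries with the most Gria1, HxD 1 had the highest hippocampal marker sum and HxD 3 the highest striatal one, while HxD 2, with little Gria1, had the next highest striatal sum at 696 CPM. Summed oligodendrocyte markers were 3041 to 3609 CPM in KO 1 to 4, 1562, 4014, 1367 and 2168 CPM in HxD 1 to 4, and 1883, 1934, 1956 and 4493 CPM in WT 1 to 4, and of the 8 markers 1, Mal, was at 0 in some library. They were lowest in HxD 3 and HxD 1 and, within WT, highest in WT 4, the WT library with the least Gria1. Summed excitatory neuron markers were 2489 to 3039 CPM in KO. In HxD 1 to 4 they were 3453, 3199, 2504 and 3610 CPM, and in WT 1 to 4 3444, 4038, 3113 and 2840 CPM. Of 7 tested oligodendrocyte markers 7 had a higher fitted level in KO than in HxD (median log2 fold change 0.72), with 0 past the adjusted threshold. Of 8 tested astrocyte markers 6 were higher in KO than in HxD (median log2 fold change 0.21), also with 0 past the threshold. In KO against WT, 5 of the 7 oligodendrocyte and 7 of the 8 astrocyte markers were higher (medians 0.36 and 0.23), with 0 past the threshold. Of all tested genes 50.2% were higher in KO than in HxD and 50.9% higher in KO than in WT. The shares called in these comparisons were 1.02% and 0.154%. The part of these markers in the Gria1 values was not tested. In HxD 1 the hippocampal marker Fibcd1 stood at 200.3 CPM, its highest value. In bulk cortex, fewer cells of a type and less RNA per cell cannot be told apart.

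Gria3, an X-linked gene whose product pairs mostly with GluA2, lay in steps across the libraries. Its values were 84.8, 230.2, 355 and 284 CPM in KO 1 to 4, 131, 144, 411 and 114 CPM in HxD 1 to 4, and 385, 135, 328 and 338 CPM in WT 1 to 4. Values of 84.8 to 144 CPM occurred in 3 HxD libraries, in WT 2 and in KO 1, and the groups overlapped. The log2 fold change in HxD against WT was -0.57 ± 0.52, with a fold between 0.302 and 1.51 (edgeR adjusted p = 0.999). It was -1.20 without HxD 3. In KO against WT it was -0.31 ± 0.52 and in KO against HxD 0.25 ± 0.52 (adjusted p = 0.923 and 0.915). GENCODE M21 lists 9 transcripts for Gria3, 8 for Gria2 and 3 for Cacng8. How reads were assigned to genes is not given in the sources used here, and the cause of the steps was not tested. Gria4, whose GluA4 is typical of parvalbumin interneurons and of early development, was the lowest of the pore subunits per length of transcript. It had 47.4, 74.4, 90.9 and 108 CPM in KO 1 to 4, 58.4, 29.5, 99.2 and 97.2 CPM in HxD 1 to 4, and 58.1, 71.2, 109.6 and 96.5 CPM in WT 1 to 4. All 3 groups covered much the same range, and the intervals were wide, a fold of 0.473 to 1.52 in HxD and of 0.534 to 1.72 in KO against WT (adjusted p = 0.999 and 0.982).

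Counts per kilobase of the longest transcript were used to set the subunits against each other within a library. The shares rest on these lengths, 10.4 kb for Gria2 and 5.55 kb for Gria1, and other lengths were not tried. On that scale Gria2 made up 41.1 ± 4.87% of the summed pore subunit level in KO, 41.6 ± 8.85% in HxD and 34.9 ± 4.22% in WT (SD, n = 4). The share of Gria1 was 26.6 ± 6.44% in KO, 35.1 ± 8.72% in HxD and 31.4 ± 5.51% in WT. Gria3 held 24.3 ± 9.34%, 17.1 ± 8.01% and 26.4 ± 8.76% in KO, HxD and WT, and Gria4 8.06 ± 2.09%, 6.22 ± 3.27% and 7.29 ± 2.01%. For each subunit the ranges of the 3 genotypes overlapped. Gria1 counts divided by Gria2 counts ran from 0.273 to 0.392 in KO, 0.312 to 0.674 in HxD and 0.408 to 0.556 in WT. This ratio of raw estimated counts needs no scaling to library totals, but a trend on transcript length that differs between libraries remains in it. The KO and WT ranges of this ratio did not overlap, and the HxD range overlapped both. The other 3 count ratios computed within a role overlapped between KO and WT. Gria2 over Gria3 ran from 2.38 to 8.39 in KO, 2.16 to 7.36 in HxD and 2.02 to 5.95 in WT, and Cnih2 over Cnih3 from 1.78 to 3.67 in KO, 2.205 to 3.23 in HxD and 2.03 to 2.85 in WT. Cacng2 over Cacng3 ran from 1.77 to 2.16 in KO, 1.30 to 1.88 in HxD and 1.18 to 2.03 in WT. These ratios join members and are given without a test, and how often ratios of other genes are apart was not computed.

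**Figure D2:**
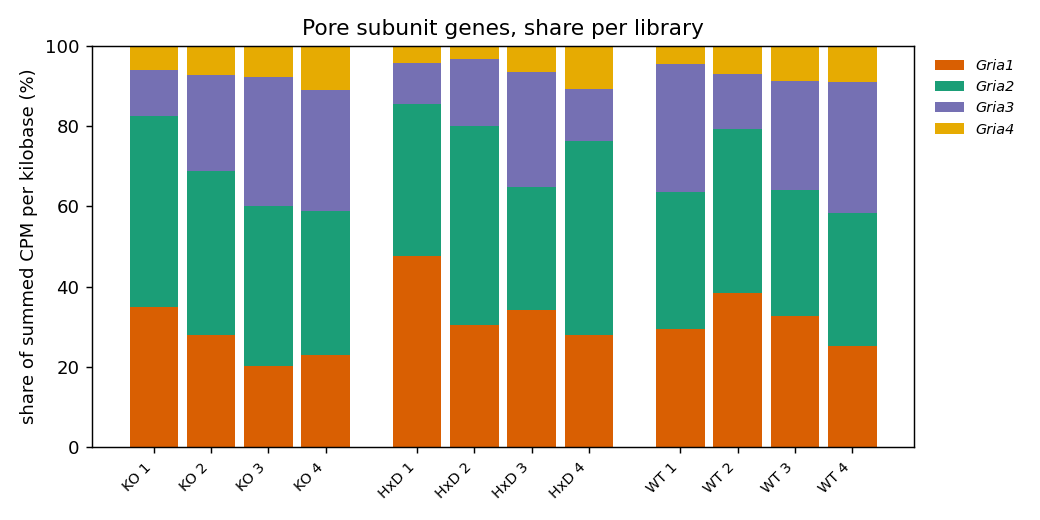
Share of Gria1, Gria2, Gria3 and Gria4 in their summed CPM per kilobase (%), as stacked bars for each KO, HxD and WT library. The share of Gria3 is 10.2% in HxD 1 and 11.3% in KO 1 and reaches 32.7% in WT 4, with large steps inside each genotype.

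None of the 3 TARP genes passed the test, and their fold changes against WT had no common sign. Cacng2 encodes stargazin, the first TARP to be described, which brings AMPA receptors to the membrane of cerebellar granule cells. It had 274, 211, 263 and 284 CPM in KO 1 to 4, 204, 328, 174 and 276 CPM in HxD 1 to 4, and 201, 280.3, 194 and 267 CPM in WT 1 to 4. In HxD and in WT, libraries 2 and 4 exceeded libraries 1 and 3, and the genotypes overlapped. The log2 fold change was 0.06 ± 0.20 in HxD and 0.13 ± 0.20 in KO against WT, with intervals of the fold of 0.762 to 1.42 and 0.800 to 1.49 (edgeR adjusted p = 0.999 and 0.918). Cacng3, a TARP found mainly in forebrain, had 127, 119, 134 and 132 CPM in KO 1 to 4, 128, 175, 134 and 188 CPM in HxD 1 to 4, and 171, 203, 156 and 132 CPM in WT 1 to 4. The KO libraries lay close together at the low end, and WT 4 and HxD 1 and 3 were as low. In KO against WT the log2 fold change was -0.37 ± 0.15 (fold 0.614 to 0.977), the only member below 0.05 before adjustment in that comparison (unadjusted p = 0.0338, edgeR adjusted p = 0.474). It was -0.08 ± 0.15 in HxD against WT and -0.29 ± 0.15 in KO against HxD (adjusted p = 0.999 and 0.503), and Cacng2 in KO against HxD was 0.07 ± 0.20 (adjusted p = 0.944).

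Cacng8 encodes the TARP most abundant in hippocampus. Its estimated counts were few, 131, 135, 16 and 79 in KO 1 to 4, 25, 30, 16 and 16 in HxD 1 to 4, and 19, 129, 15 and 16 in WT 1 to 4. There were thus libraries with about 15 to 30 counts and libraries with 79 or more, and both kinds occurred in KO and in WT. In CPM, KO 3 at 1.71 lay with the low libraries, while KO 1, KO 2 and KO 4 stood at 22.4, 18.0 and 13.5. WT 2 stood at 12.3, against 1.60 to 2.17 in the other WT libraries. HxD 1, the library with the highest hippocampal marker sum, had 2.69 CPM of Cacng8. The log2 fold change was 1.63 ± 0.83 in KO against WT (fold 0.866 to 11.1, edgeR adjusted p = 0.591). It was 2.47 ± 0.86 in KO against HxD (fold 1.48 to 20.7, unadjusted p = 0.0156, adjusted p = 0.316). In HxD against WT it was -0.84 ± 0.83 (adjusted p = 0.999), and 0.42 without WT 2. Without WT 2, KO against WT gave 2.88 (adjusted p = 0.339). The DESeq2 Wald test gave KO against HxD an adjusted p of 0.0729, the lowest of any member under any setting.

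The cornichons varied mostly between libraries of 1 genotype. Cnih2 had 307, 347, 312 and 269 CPM in KO 1 to 4, 599, 299, 411 and 308 CPM in HxD 1 to 4, and 382, 342, 430.2 and 269.8 CPM in WT 1 to 4. HxD 1 was highest, and KO and WT overlapped down to their lowest libraries. Its log2 fold change against WT was 0.18 ± 0.22 in HxD and -0.21 ± 0.22 in KO (edgeR adjusted p = 0.999 and 0.857), with a fold between 0.811 and 1.59 in HxD and between 0.619 and 1.22 in KO. Cnih3 had 125, 94.5, 105 and 152 CPM in KO 1 to 4, 186, 136, 169 and 131 CPM in HxD 1 to 4, and 149, 169, 179.7 and 94.6 CPM in WT 1 to 4. HxD 1 was again highest, and WT 4 was as low as KO 2. The log2 fold change was 0.07 ± 0.21 in HxD and -0.31 ± 0.21 in KO against WT (adjusted p = 0.999 and 0.707). In KO against HxD, Cnih2 had -0.39 ± 0.22 and Cnih3 -0.38 ± 0.21 (adjusted p = 0.528 and 0.523).

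**Figure D3:**
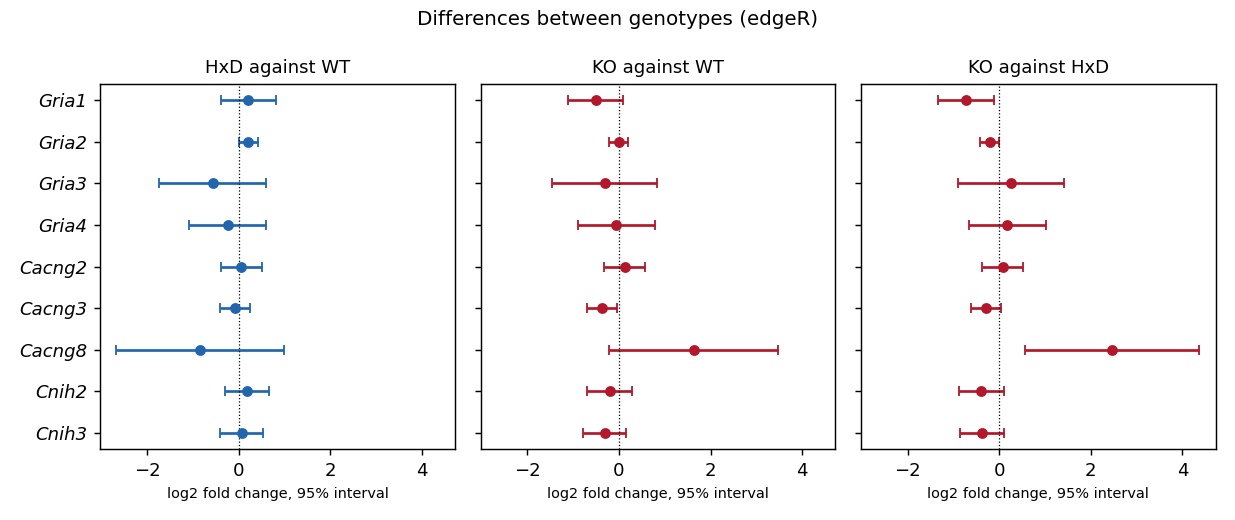
log2 fold change with its 95% interval for each of the 9 genes in KO against HxD and in both genotypes against WT (edgeR, 4 libraries per genotype). The interval is narrowest for Gria2 and widest for Cacng8, and no gene passed the adjusted threshold.

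Within WT, the order of levels per kilobase was led by Cnih2 at 265 ± 50.5 CPM per kb (SD, n = 4), above all other members in every WT library. Gria2 at 73.9 ± 6.06, Gria1 at 66.7 ± 11.3, Cacng3 at 59.5 ± 10.7, Gria3 at 57.0 ± 21.2, Cnih3 at 55.5 ± 14.2 and Cacng2 at 42.8 ± 8.06 CPM per kb followed. Neighbours in that stretch of the order overlapped between libraries. The order rests on the length of the longest transcripts, and other lengths were not tried. Gria4 at 15.4 ± 4.31 and Cacng8 at 2.36 ± 2.75 CPM per kb came last, each below the range of the member before it. KO had Cnih2 at 229.8 ± 23.6 and Gria2 at 73.7 ± 8.71 CPM per kb, and HxD had 301 ± 104 and 85.3 ± 5.53, likewise at the head of the order. The spread around the genotype means also differed among members. Its SD in log2 units was 0.13 for Gria2 and 0.22 for Cacng3, against a median of 0.25 over 8112 genes with at least 10 CPM. It was 0.82 for Gria3 and 1.17 for Cacng8, higher than in 87.4% and 90.8% of those genes, although Cacng8 itself averaged 6.97 CPM and is set there against more abundant genes.

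Some members went up and down together from library to library. Gria1 and Cnih2 had a Pearson correlation of log2 CPM of 0.92 and a Spearman correlation of 0.85 over the 12 libraries. Cnih2 was thereby in place 7 of 8111 genes ordered by likeness to Gria1. This pair and the 2 that follow were chosen after the values of all 36 pairs were seen. The value was 0.83 without HxD 1 and HxD 3, the libraries farthest from the median of Gria1, and 0.80, 0.95 and 0.91 within KO, HxD and WT of 4 libraries each. Cacng2 ran opposite to Cnih2, with a Pearson correlation of -0.74 and a Spearman correlation of -0.81, and -0.71 without HxD 3 and WT 3, in place 223 from the lowest of the 8111 genes. Gria1 and Cnih3 had a Pearson correlation of 0.71 and a Spearman correlation of 0.66, and 0.59 without HxD 1 and HxD 3, but -0.59 within KO, and Cnih3 was in place 368 by likeness to Gria1. The 12 points share their tissue makeup and scaling, so these are descriptions. The genes closest to Gria1 outside the group were Orai2, a calcium channel subunit of store-operated entry, Cotl1, an actin-binding protein, and the adhesion molecule Dscaml1, with correlations of 0.95, 0.94 and 0.94. Those closest to Gria2 were Casd1, Lcmt1 and Cnrip1, with 0.94, 0.91 and 0.91.

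**Figure D4:**
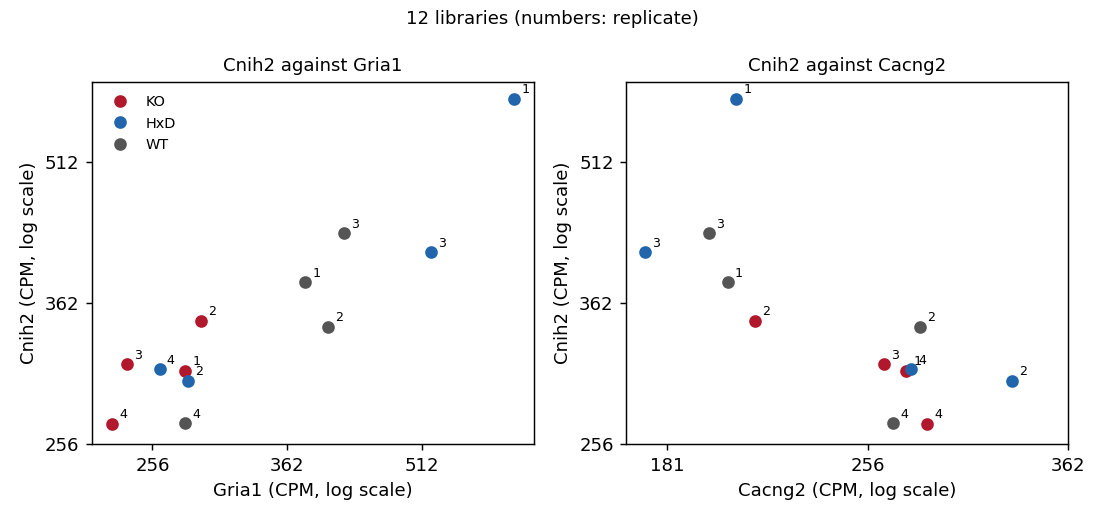
Cnih2 against Gria1 (left) and against Cacng2 (right), in CPM on log axes, 1 point per library, coloured by genotype and numbered by replicate. Cnih2 follows Gria1 (Pearson correlation of log2 CPM 0.92) and runs opposite to Cacng2 (-0.74), and HxD 1 is the topmost point of both plots.

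The promoters of Gria2 and Cnih2 are shown as the regions on which a cytosine dioxygenase could act in the steadiest pore subunit and in the gene that followed Gria1. They are the 250 bases before the RefSeq start on GRCm38.p6, read 5′ to 3′ on the gene's strand, at chr3:80802836-80803085 (minus strand) and chr19:5098522-5098771 (minus strand). Capitals mark each CG dinucleotide, the site at which mammalian DNA is mainly methylated.
Gria2: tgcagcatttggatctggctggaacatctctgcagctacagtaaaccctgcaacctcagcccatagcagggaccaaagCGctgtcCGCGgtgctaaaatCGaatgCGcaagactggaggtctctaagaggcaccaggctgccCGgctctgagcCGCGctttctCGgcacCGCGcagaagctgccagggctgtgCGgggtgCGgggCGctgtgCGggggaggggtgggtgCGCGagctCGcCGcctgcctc
Cnih2: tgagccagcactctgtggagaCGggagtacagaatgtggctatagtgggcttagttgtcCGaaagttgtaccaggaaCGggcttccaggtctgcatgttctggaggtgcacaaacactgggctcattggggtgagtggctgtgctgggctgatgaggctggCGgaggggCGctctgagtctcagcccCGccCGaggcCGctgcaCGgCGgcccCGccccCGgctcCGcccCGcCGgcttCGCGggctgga
RefSeq promoters were matched for 7 of the 9 members. Gria2 holds 19 CG and Cnih2 17, more than 80.3% and 76.5% of 32851 promoter windows of the same length. Of those windows 92.1% hold at least 1 CG, on either strand since the pair reads the same on both, and their median is 6. Cnih3 with 36 CG is the richest member and Cacng8 with 0 the poorest, while Gria4 and Cacng2 have 16 each and Cacng3 has 8. Methylation was not analysed here, and these letters say nothing of what TET1 does at the genes.

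Around the receptor, the other AMPA auxiliary proteins gave no call either, with 0 of 7 tested genes past the threshold in each comparison, and 0, 3 and 4 at an unadjusted p below 0.05 in HxD against WT, then KO against WT, then KO against HxD. Their median log2 fold changes were -0.13, -0.49 and -0.34. Of all tested genes 0.898%, 0.154% and 1.02% passed the threshold in these comparisons. An unadjusted p below 0.05 was held by 4.05%, 9.48% and 11.6% of all tested genes. Cacng7, a type II TARP, had 406, 417, 429 and 437 CPM in KO 1 to 4, 295, 351, 298 and 326 CPM in HxD 1 to 4, and 340.1, 351, 337 and 426 CPM in WT 1 to 4. All KO libraries lay above all HxD libraries, as they did for 3.97% of tested genes, and overlapped with WT. The log2 fold change of Cacng7 was 0.41 ± 0.09 in KO against HxD (edgeR adjusted p = 0.0666) and -0.19 ± 0.09 in HxD against WT (adjusted p = 0.999). Shisa9, or CKAMP44, which binds AMPA receptors in dentate gyrus and speeds their desensitisation, had 45.4, 40.1, 56.0 and 33.8 CPM in KO 1 to 4, 94.6, 52.6, 82.3 and 66.6 CPM in HxD 1 to 4, and 82.7, 68.6, 82.3 and 59.7 CPM in WT 1 to 4. Its log2 fold change was -0.74 ± 0.21 in KO against WT and -0.76 ± 0.21 in KO against HxD (adjusted p = 0.257 and 0.195), comparisons that share the KO libraries. Gsg1l, a claudin-like auxiliary protein, averaged 145 ± 27.7 CPM in KO, 160.2 ± 25.0 CPM in HxD and 197 ± 36.8 CPM in WT (adjusted p = 0.468 in KO against WT and 0.999 in HxD against WT).

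Genes of receptor biogenesis, 8 tested of 10 listed, showed 0 past the threshold in each comparison and 0 at an unadjusted p below 0.05. Their smallest p-values belonged to Porcn and Cpt1c in HxD against WT, to Sacm1l and Olfm1 in KO against WT, and to Sacm1l and Porcn in KO against HxD. Porcn, an acyltransferase found in native AMPA receptor complexes, averaged 44.7 ± 18.1 CPM in KO, 37.4 ± 7.41 CPM in HxD and 45.4 ± 15.6 CPM in WT. Cpt1c, a neuronal carnitine palmitoyltransferase relative that regulates GluA1 export, averaged 90.3 ± 22.7 CPM in KO, 94.99 ± 11.5 CPM in HxD and 101 ± 31.5 CPM in WT. Sacm1l, a phosphoinositide phosphatase, averaged 35.4 ± 23.8 CPM in KO, 46.2 ± 6.29 CPM in HxD and 47.5 ± 8.39 CPM in WT, and Olfm1, a secreted noelin, 463 ± 186 CPM, 401 ± 106 CPM and 392 ± 63.0 CPM.

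Among proteins that anchor or move the receptor, 15 of 18 listed genes were tested and 0 passed in each comparison. An unadjusted p below 0.05 was held by 0, 3 and 3, beside 4.05%, 9.48% and 11.6% of all tested genes. The adjusted threshold was passed by 0.898%, 0.154% and 1.02% of all tested genes. Nptxr, the neuronal pentraxin receptor that clusters AMPA receptors from the cell surface, had 711, 520.1, 694 and 708 CPM in KO 1 to 4, 1518, 885, 1179 and 972 CPM in HxD 1 to 4, and 1655, 1192, 1341 and 734 CPM in WT 1 to 4. All KO libraries were below all WT and all HxD libraries. Among all tested genes, 3.95% were lower in this way in KO against WT and 3.62% in KO against HxD. The log2 fold change was -0.90 ± 0.24 in KO against WT and -0.79 ± 0.24 in KO against HxD (edgeR adjusted p = 0.244 and 0.252). Nptx2, a secreted pentraxin induced by activity, averaged 63.1 ± 15.9 CPM in KO, 116 ± 57.2 CPM in HxD and 84.2 ± 24.7 CPM in WT (adjusted p = 0.356 in KO against HxD). Stx4a, a syntaxin of dendritic exocytosis, averaged 46.6 ± 17.9 CPM in KO, 34.4 ± 10.8 CPM in HxD and 23.5 ± 4.63 CPM in WT (adjusted p = 0.295 in KO against WT and 0.999 in HxD against WT). Pick1, which binds the tail of GluA2, averaged 51.9 ± 3.57 CPM in HxD and 45.5 ± 5.08 CPM in WT (adjusted p = 0.999).

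Other receptor families were set beside the AMPA receptor genes. Tested were 8 of 9 listed kainate and delta receptor genes, 4 of 7 NMDA receptor subunits and 11 of 12 GABA-A receptor subunits. None passed edgeR in any of the 3 comparisons. In these comparisons 0, 2 and 2, then 0, 1 and 3, then 0, 3 and 5 had an unadjusted p below 0.05. Over all tested genes the shares were 4.05%, 9.48% and 11.6%. Only 0.898%, 0.154% and 1.02% of all tested genes passed edgeR, so a count of 0 in lists this short lies near the background. Median log2 fold changes in KO against WT were -0.29, -0.55 and -0.06 for these families, against -0.21 for the 9 AMPA receptor genes, and the difference between families was not tested. Grin2b, the NMDA receptor subunit with the smallest p in KO against WT, averaged 549 ± 88.2 CPM in KO, 786 ± 197 CPM in HxD and 971 ± 193 CPM in WT, with a log2 fold change of -0.82 ± 0.20 in KO against WT (adjusted p = 0.190). Grik3, a kainate receptor subunit, averaged 152 ± 11.9 CPM in KO against 204 ± 37.5 CPM in WT (adjusted p = 0.285), and Neto1, a kainate receptor auxiliary protein, 124 ± 12.4 CPM in KO against 185 ± 46.0 CPM in HxD (adjusted p = 0.24). Grid1, a delta receptor, averaged 95.7 ± 6.07 CPM in KO, 119 ± 23.2 CPM in HxD and 119.8 ± 6.15 CPM in WT (adjusted p = 0.429 in KO against WT). Of the other subunits with the smallest p, Grin3a averaged 33.3 ± 12.4 CPM in KO, 77.7 ± 40.2 CPM in HxD and 56.9 ± 16.9 CPM in WT, and Grin1, the obligatory NMDA receptor subunit, 212 ± 49.6, 280.2 ± 15.7 and 266 ± 41.9 CPM. Among the GABA-A receptor subunits, Gabra3 averaged 194 ± 13.0 CPM in KO and 254 ± 43.2 CPM in WT (adjusted p = 0.360). Gabrd averaged 33.8 ± 12.3 CPM in HxD and 60.6 ± 23.9 CPM in WT, and Gabrb2 186 ± 49.5 CPM in HxD and 223 ± 36.7 CPM in WT.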

How the data were processed

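Polyadenylated RNA of whole cortex was sequenced in 12 libraries, per the labels' protocols. The builds GRCm39 and mm10 and the tools STAR 2.7.1a, StringTie 2.2.3, Trim Galore 0.6.7 and SAMtools 1.9 are named, without role or order, per the submitters' processing notes. The way reads were assigned to genes, and their strand, is not given in the sources used here. In the deposited table each gene symbol has an estimated count for each library, and no normalization by the authors is seen in the totals. The values are whole numbers, so rounding changed nothing. They were read as estimated counts because Gapdh is listed at 0 in 12 libraries. The 56 rows of 25 repeated symbols were left out.

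All 12 libraries entered 1 edgeR fit (edgeR 4.0.16, R 4.3.3, robust quasi-likelihood F test, two-sided) with genotype as the only term, TMM factors of 0.968 to 1.02 and filterByExpr at a minimum count of 10. Adjusted p-values are Benjamini-Hochberg over the 11693 genes tested, with a threshold of 0.05. Standard errors are the log2 fold change divided by the root of F, and 95% intervals use that SE. CPM was computed here from the deposited counts with TMM factors, log2 CPM for correlations used CPM plus 0.5, and lengths were those of the longest GENCODE M21 transcript (99.7% of symbols matched). The members and lists were chosen with earlier results of these data known. All 9 members are named, and from each related list the genes past the threshold or, with none, the 2 with the smallest p in a comparison. Some genes that this rule picks are not reported here. For Gria1 and Gria2, the 3 genes with the most similar values were named. Alternatives used limma 3.58.1, DESeq2 1.42.0 and sva 3.50.0. The scripts were tested on simulated data. Deviations from the genotype mean were correlated between libraries of different genotypes. With the same replicate number the correlations ran from -0.07 to 0.07, with 0 of 12 pairs above 0.1. With unlike numbers they ran from -0.11 to 0.06. The highest were those of WT 3 with HxD 3 (0.073) and WT 4 with HxD 4 (0.070). Whether libraries with the same number were handled together was not tested. Totals limit counting error only, since PCR copies of a molecule are counted separately where no identifiers mark them.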

Additional observations from a re-analysis of the deposited data

Results flagged for a closer look

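Of 27 groups of 4 libraries (9 genes in 3 genotypes), 2 held a library whose gap to its nearest neighbour exceeded, as a share of the range, Dixon's 95% critical value for 4 values, and chance flags about 1 in 20 groups. Gria3 in HxD 3 stood at 411.1 CPM, against 114 to 144 CPM in the other HxD libraries, a gap of 0.901 of the range. Cacng8 in WT 2 stood at 12.3 CPM, against 1.60 to 2.17 CPM in the other WT libraries, a gap of 0.947 of the range.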

How the results depend on the processing

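No member passed the threshold under any of 26 other settings (lowest adjusted p 0.0729), and 13 of 27 log2 fold changes kept their sign throughout. The background of all genes called moved more. HxD against WT had 105 calls, 172 with the DESeq2 Wald test, 31 in libraries 1 and 3 only and 7 in libraries 2 and 4 only. KO against WT had 18 calls, 288 with DESeq2, 0 with limma-voom, 0 with only the 8 libraries compared (1145 and 1171 genes at an unadjusted p below 0.05), 5 with the replicate block, 4 with the block and the length offset, and 12 to 35 with 1 library left out, the highest without WT 4. KO against HxD had 119 calls and 396 with DESeq2. The replicate block changed no member's call.

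Signs that turned belonged to values that passed no test, and the cause was not tested. With 1 library left out, log2 fold changes of HxD against WT ran from -0.11 to 0.18 (Cacng2), -0.19 to 0.028 (Cacng3), -1.13 to 0.42 (Cacng8), -0.10 to 0.18 (Cnih3), -0.061 to 0.39 (Gria1), -0.073 to 0.30 (Cnih2) and -0.45 to 0.017 (Gria4). In KO against WT they ran from -0.079 to 0.034 (Gria2) and -0.26 to 0.12 (Gria4), and in KO against HxD from -0.064 to 0.24 (Cacng2), -0.080 to 0.38 (Gria4) and -0.0027 to 0.88 (Gria3). In libraries 1 and 3 only, HxD against WT gave -0.065 (Cacng2) and 0.19 (Cacng8), and in libraries 2 and 4 only -0.33 (Gria1), 0.12 (Cacng3) and -0.0097 (Cnih2). With HxD 2 and HxD 4 alone as the HxD group, a setting chosen after seeing the data, it gave -0.46 (Gria1), 0.13 (Cacng3), -0.24 (Cnih2) and -0.16 (Cnih3), and KO against HxD gave -0.23 (Cacng2) and 0.022 (Cnih2). With 1 surrogate variable, Cacng2 was -0.057 in HxD and -0.044 in KO against WT, and in KO against WT Gria2 was 0.056 and Gria4 0.11. With library size only, Gria2 in KO against WT was 0.0091. The length offset gave 0.29 (Gria2) and 0.073 (Gria4) there, and with the replicate block 0.27 and 0.077. Counts of 15 to 30 limit what can be said of Cacng8.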
